A study of Mus musculus with 10 samples.

Results

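Collagen chains were taken as the protein-coding genes whose symbol is Col, a number, the letter a and a number. They numbered 43 of the 23195 genes with a row in the expression table. They were followed in hearts dissected at embryonic day (E) 13.5 from 5 wild-type (*Nos1ap* +/+) and 5 *Nos1ap* null (tm1d/tm1d) male mouse embryos of the C57BL6/J strain. PolyA RNA of each heart was made into 1 stranded library. The comparison of null with wild type asks what the loss of *Nos1ap* does to transcripts of the heart before birth. *Nos1ap* encodes an adaptor of neuronal nitric oxide synthase. In the tm1d allele, which came from a floxed allele by a cross with CMV-Cre mice, exon 4 is deleted throughout the body and not in cardiac muscle alone. The wild-type embryos carry no engineered *Nos1ap* allele, and no source used here says which embryos were littermates.

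A collagen chain winds with partner chains into a rope-like helix, and a glycine at the first position of each triplet of residues lets the chains pack. Fibrillar chains form the banded fibres that resist stretch, the type IV chains form the sheet-like network of basement membranes, and the remaining families decorate fibrils, link cells to the matrix or form small filaments. In the heart of this stage, fibrillar collagens are known from the endocardial cushions, the epicardium and their mesenchyme, and type IV collagens from the basement membranes of endothelium, epicardium and cardiomyocytes. By class, 11 of the 43 genes were fibrillar, 8 belonged to basement membranes (6 type IV chains and the multiplexins *Col15a1* and *Col18a1*) and 24 to other families.

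The repeat that defines these chains can be read in their exons. From 4 of the 5 most abundant fibrillar genes, a coding exon of 54 bases in the helical part is shown 5′ to 3′ on the strand of the gene, with the codons of the form GGN (all glycine codons) that recur every 3 codons in capitals. They are exon 8 of *Col1a1* (chr11:94939904-94939957, plus strand), exon 8 of *Col1a2* (chr6:4515481-4515534, plus), exon 6 of *Col3a1* (chr1:45325360-45325413, plus) and exon 10 of *Col5a2* (chr1:45422386-45422439, minus), all GRCm38 in GENCODE release M21.
Col1a1: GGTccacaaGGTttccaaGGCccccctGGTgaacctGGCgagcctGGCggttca
Col1a2: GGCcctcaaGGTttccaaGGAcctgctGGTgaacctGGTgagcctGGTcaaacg
Col3a1: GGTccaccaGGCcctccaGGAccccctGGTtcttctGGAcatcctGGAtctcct
Col5a2: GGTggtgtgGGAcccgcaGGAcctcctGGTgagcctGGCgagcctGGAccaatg
A stretch of 72 coding bases of *Col4a1* shows how the repeat of a type IV chain breaks off and starts anew, with the same codons in capitals.
Col4a1: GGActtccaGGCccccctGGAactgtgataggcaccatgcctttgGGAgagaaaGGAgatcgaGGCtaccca

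Over the whole coding sequence, the fibrillar chains of types I, II, III, V and XI each held an uninterrupted run of 337 to 344 such triplets, whereas the longest run was 216 triplets in *Col24a1* and 217 in *Col27a1*. The 6 type IV chains held more triplets in all, 425 to 444, but these were split into 22 to 27 runs, of which the longest measured 39 to 66 triplets. Inner coding exons of exactly 54 bases numbered 21 to 33 in the fibrillar genes and 1 to 3 in the type IV genes. The type VIII genes *Col8a1* and *Col8a2*, whose product forms hexagonal lattices, have only 2 coding exons each.

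**Figure D1:**
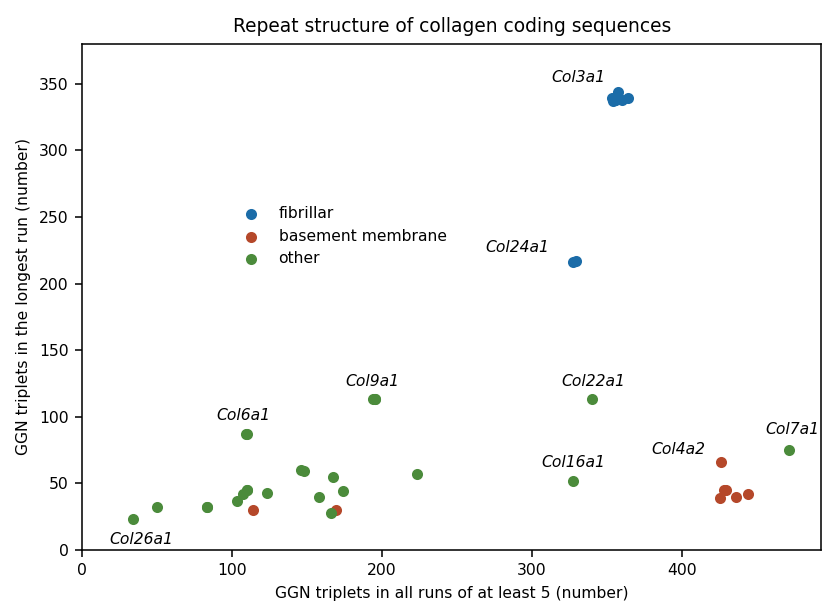
Number of GGN triplets in the longest run of each of the 43 collagen coding sequences (vertical axis) against the number in all runs of at least 5 triplets (horizontal axis), with 1 point per gene coloured by class. The fibrillar genes lie at 216 to 344 triplets in the longest run, and the type IV genes lie at 39 to 66 in spite of 425 to 444 triplets in all.

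Levels are given as normalized counts, the read counts of a library divided by its size factor. The table holds the mean of each group, and the whole counts of single libraries behind these means could be worked out for both groups for 29 of the 43 genes. For 13 genes both group means were 1000 or more, and such means were left without values by library: a set of counts was found in neither group for 10 of the 13 and in 1 group for 3. *Col6a3* could be resolved in wild type only. For these the group mean stands without an SD or a test. The libraries are numbered 1 to 5 within a genotype by falling size factor, which is not the replicate number that a label gives. *Nos1ap* itself checked the labels: the 5 wild-type libraries held 124 to 169 reads and the 5 null libraries 29 to 47. The normalized means were 144 ± 14.4 (SD, n = 5) in wild type and 39.8 ± 5.20 (SD, n = 5) in null. An estimated 11330000 to 14020000 read pairs per library fell on genes, and the 10 cardiomyocyte markers examined all had group means above this limit.

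A wild-type and a null library stood apart. In wild-type library 3, the summed level of the 5 neuronal markers that could be resolved (of 9 listed) was 1902 normalized counts, against 107 to 124 in the other 9 libraries. Null library 2 had the lowest summed level of the 35 resolved genes of collagen processing and binding described further on, 9733 normalized counts against 10561 to 11560.1 in the other libraries. In whole hearts, fewer cells of a type and less RNA per cell cannot be told apart.

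Collagen transcripts took 0.849% of all normalized counts in wild type and 0.828% in null. To compare genes, each group mean was divided by the length of the gene's exons in kilobases. On this scale the fibrillar class made up 52.1% of the collagen signal in wild type and 51.2% in null, the basement membrane class 36.5% and 37.6%, and the other families 11.4% and 11.2%. The 7 highest genes, *Col1a1*, *Col3a1*, *Col4a1*, *Col4a2*, *Col18a1*, *Col1a2* and *Col5a1*, carried 78.2% of the signal in wild type and 78.0% in null. The order of levels was thus the same at the top of both groups, and it spanned fibrillar and basement membrane genes alike.

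**Figure D2:**
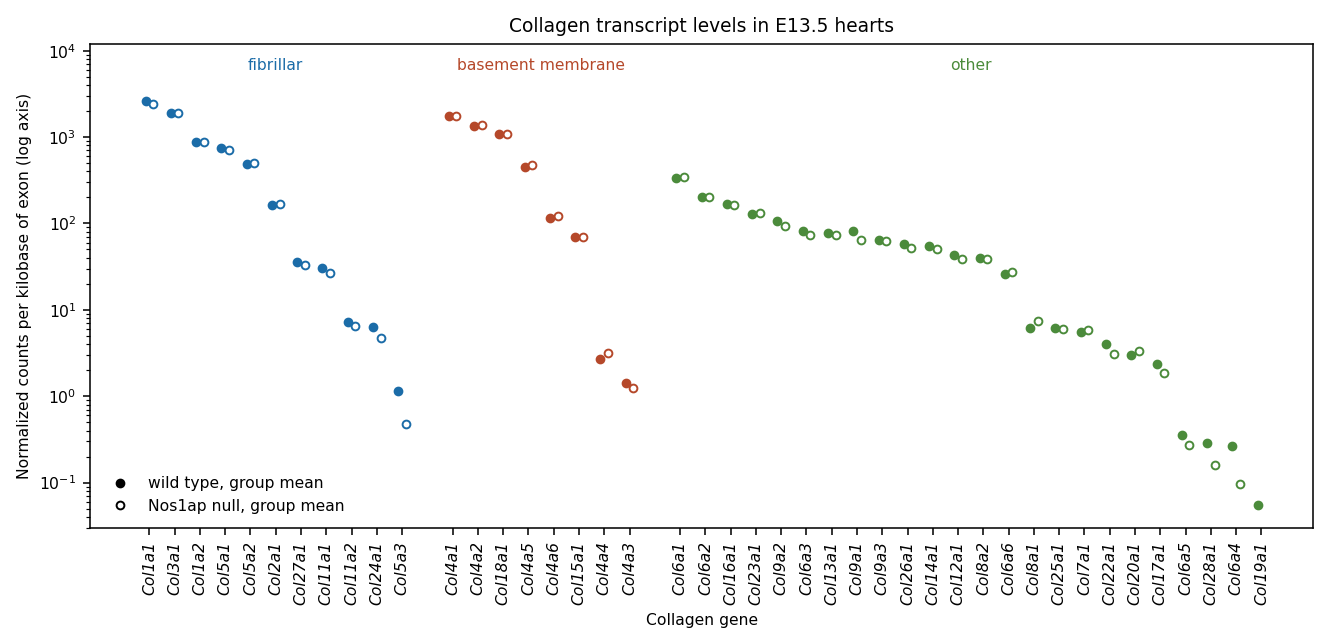
Group means of the 43 collagen genes in normalized counts per kilobase of exon (log axis), by class and in falling order, with wild type as filled and null as open circles; each is a mean over 5 libraries and no error is drawn. Filled and open circles lie close together for the abundant genes, and *Col19a1* has no open circle because its null mean is 0.

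Among the fibrillar chains, *Col3a1*, the chain of the fibrils of soft and stretchable tissue, and *Col1a1* were highest. *Col3a1* had a group mean of 18594 normalized counts in wild type and 18433 in null, and *Col1a1* of 17122 and 15997. Per kilobase of all annotated exons *Col1a1* was above *Col3a1* (2609 against 1894 in wild type), and per kilobase of the longest transcript it was below it (2887 against 3342). *Col1a2*, the partner of *Col1a1* in type I collagen, stood at 10969 and 10974. *Col5a1* (6309 and 5950) and *Col5a2* (4634 and 4778), whose type V molecules start and narrow type I fibrils, followed. *Col2a1*, the main fibrillar chain of cartilage that the cushions also express, stood at 1496 in wild type and 1550 in null. The log2 ratios of null to wild type of these 6 genes lay between -0.10 and 0.05. The minor chains were far lower per kilobase: 35.8 in wild type for *Col27a1*, 30.2 for *Col11a1*, 7.22 for *Col11a2*, 6.39 for *Col24a1* and 1.14 for *Col5a3*.

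Of the basement membrane chains, *Col4a1* (12963 normalized counts in wild type, 13103 in null) and *Col4a2* (8996 and 9079), which form the common type IV molecule together, were highest. *Col18a1*, whose C-terminal fragment is endostatin, stood at 7549 and 7610. The X-linked *Col4a5* reached 3023 and 3156, and its neighbour *Col4a6* 911 ± 84.1 and 965 ± 55.5 (SD, n = 5 each). *Col15a1* stood at 437 ± 102 and 442 ± 120 (SD, n = 5 each). *Col4a3* and *Col4a4*, which with *Col4a5* make the mature network of the kidney glomerulus, were near the bottom at 14.1 ± 4.32 and 29.0 ± 5.80 in wild type and 12.3 ± 4.12 and 34.0 ± 4.23 in null (SD, n = 5).

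The type IV genes lie in head-to-head pairs on 3 chromosomes, which puts the starts of *Col4a1* and *Col4a2* in the same promoter window. The annotated starts of *Col4a1* (minus strand) and *Col4a2* (plus strand) are 21 bases apart on chromosome 8, and the genes overlap there. The starts of *Col4a3* and *Col4a4* are 72 bases apart on chromosome 1, and those of *Col4a5* and *Col4a6* 1309 bases apart on chromosome X. In these pairs a gap separates the genes. The promoter window of *Col4a2* (chr8:11312555-11312854, plus strand, RefSeq on GRCm38.p6), which also holds the annotated start of *Col4a1*, is printed with the letters CCAAT and GGGCGG on either strand in capitals, and it holds 1 match of the former and 3 of the latter.
Col4a2 promoter: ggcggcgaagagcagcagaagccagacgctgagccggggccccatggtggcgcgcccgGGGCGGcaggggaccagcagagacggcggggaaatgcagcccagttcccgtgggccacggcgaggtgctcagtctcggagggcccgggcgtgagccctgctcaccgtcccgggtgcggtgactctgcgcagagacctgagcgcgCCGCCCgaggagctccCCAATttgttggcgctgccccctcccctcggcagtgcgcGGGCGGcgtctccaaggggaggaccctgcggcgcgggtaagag
A gene was counted if any of its promoter windows held the letters, whereas the reference was counted window by window. The shares are therefore not on the same unit. GGGCGG stood in a window of 22 of the 34 collagen genes with a promoter entry (64.7%) and in 35.6% of the 32817 windows of the reference. CCAAT stood in a window of 13 of the genes (38.2%) against 37.4%, and TATAAA of 4 (11.8%) against 13.6%. These are matches of letters and not shown to be bound.

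In the other families, the beaded-filament chains *Col6a1* (1484 normalized counts in wild type, 1526 in null), *Col6a2* (1693 and 1699) and *Col6a3* (969 ± 99.2, SD, n = 5, and 890, no SD) had the highest counts, not corrected for length. With them stood *Col16a1* (1131 and 1105), which attaches to fibrils. *Col6a1* was the highest of the class per kilobase, at 339 in wild type. On that scale *Col6a3*, at 81.0, was below *Col16a1* (168), *Col23a1* (129) and *Col9a2* (108). The transmembrane chain *Col23a1* stood at 741 ± 58.5 and 767 ± 39.9, and *Col13a1*, another transmembrane chain, at 358 ± 15.8 and 338 ± 26.3 (SD, n = 5 each). The chains *Col6a4*, *Col6a5*, *Col28a1* and *Col19a1* all had group means below 4 normalized counts. *Col19a1* had 1 read in each of 2 wild-type libraries and none in the null libraries, which is below what this depth can compare. With *Col5a3*, they are the 5 genes under the minimum of 10 normalized counts set for the tests.

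Chains that assemble together were set against each other per kilobase. *Col1a1* was 2.96 times *Col1a2* in wild type and 2.76 times in null, with all annotated exons as the length. With the longest transcript as the length, the ratios were 1.41 and 1.31, so its size rests on the annotation of *Col1a2* and the change of length was larger than the change of genotype. *Col4a1* was 1.28 times *Col4a2* in both genotypes. *Col6a1* was 1.67 and 1.71 times *Col6a2*, but 1.05 and 1.08 times with the longest transcript. *Col5a1* was 1.54 and 1.41 times *Col5a2*, whereas with the longest transcript the ratios were 1.07 and 0.981. Neither gene had values by library, so these ratios have no spread. Whether the order of the chains differs between genotypes was not tested. For *Col9a1* over *Col9a3*, chains of type IX collagen on the surface of cartilage-type fibrils, the ratio was 1.25 in wild type (0.206 SD, 1.04 to 1.57 over 5 libraries) and 1.01 in null (0.205 SD, 0.702 to 1.23), so the groups overlapped. *Col8a1* was 0.155 times *Col8a2* in wild type (0.0982 to 0.255) and 0.191 times in null (0.146 to 0.231).

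No collagen chain passed the test between genotypes. Single libraries were compared with limma on log2(normalized count + 1) over the 10539 protein-coding genes with resolved counts whose mean reached 10 and whose group means stayed below 1000, at a false discovery rate (FDR) of 1% and an absolute log2 fold change over 1, the thresholds of the study. Of the 24 collagen genes in this fit, 0 were called, and over all genes 3 were called, a background of 0.0285%. With FDR 5% and no limit on the fold change, 0 collagen genes were called and again 0.0285% of all genes. At an unadjusted *P* under 0.05, 1 of the 24 was found (4.17%), against 3.36% of all genes tested. With voom in place of limma's trend, the counts were likewise 0 called and 1 at an unadjusted *P* under 0.05. In 0 of the 24 genes did the ranges of the groups not overlap, against 0.778% of all genes. In the fit, 17 of the 24 had a log2 fold change below 0 (70.8%), against 52.1% of all genes. Without null library 2 the number was 14 (58.3%, against 51.5% of all genes), and without wild-type library 3 as well it was 12 (50%, against 48.7%). The 14 remaining genes that reached a mean of 10, the most abundant ones among them, had no test.

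**Figure D3:**
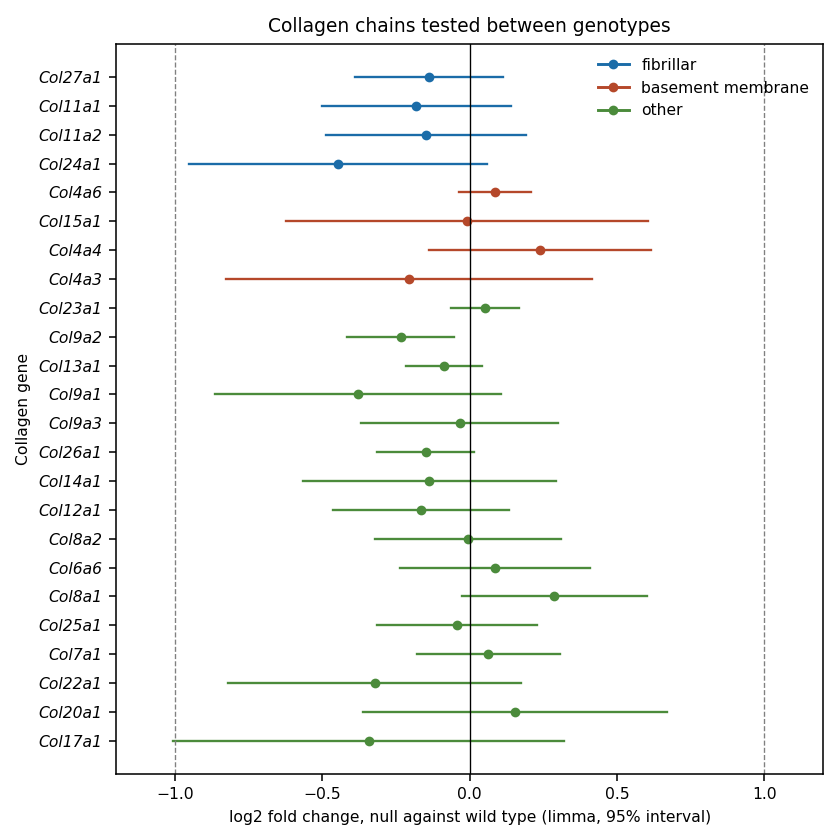
Log2 fold change of null against wild type from limma for the 24 collagen genes tested (points) with the 95% interval (lines), coloured by class, and dashed lines at the threshold of 1 in either direction. The interval of every gene but *Col9a2* spans 0, and the widest reaches -1.01 in *Col17a1*.

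The intervals say how large a change could have gone unseen. The SE of the log2 fold change ranged from 0.05 to 0.32 with a median of 0.15, and the 95% intervals of the 24 genes lay between -1.01 and 0.67. Changes of 1 on the log2 scale are outside the interval of 23 of these genes, *Col17a1* excepted. The exact permutation test (two-sided, 252 arrangements) can go down to *P* = 0.00794, and its smallest value among the collagen genes was 0.0476, unadjusted, in *Col9a2*.

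By group means, which cover the abundant chains too, 17 of the 38 collagen genes with a mean of at least 10 were higher in null and 21 were lower, and 55.3% lower compares with 50.5% of the 13299 protein-coding genes of this level. The median log2 ratio of null to wild type was -0.03, against -0.00093 over all genes. In the fibrillar class 3 genes were higher and 7 lower with a median of -0.09. In the basement membrane class 7 were higher and 1 (*Col4a3*) was lower with a median of 0.02, and in the other families 7 were higher and 13 lower with a median of -0.04. An absolute log2 ratio over 0.25 was reached by 5 of the 38 (13.2%) and by 6.68% of all genes. They were *Col24a1*, *Col22a1*, *Col17a1* and *Col9a1*, lower in null, and *Col8a1*, higher in null. A ratio over 0.5 was reached by 0 of the 38, against 2.4% of all genes. These are descriptions of group means and carry no test.

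Of the fibrillar chains with values by library, *Col27a1*, a chain with a short helix found in developing cartilage, measured 449, 455, 480.4, 460.3 and 485 normalized counts in wild-type libraries 1 to 5 and 465, 299.6, 486, 470.4 and 425 in null libraries 1 to 5. All libraries but null library 2 lay between 425 and 486, and the groups overlapped. Its log2 fold change was -0.14 (95% interval -0.39 to 0.11; limma, adjusted *P* = 0.999), and -0.015 without null library 2. *Col11a1*, whose type XI molecules nucleate thin fibrils, measured 318, 375, 469, 360.2 and 400.4 in wild type and 367, 237, 378, 381 and 342 in null. Null library 2 was the lowest and wild-type library 3 the highest of the 10. Its log2 fold change was -0.18 (-0.50 to 0.14), and it was 0.02 without these 2 libraries. *Col11a2*, its partner, measured 54.8, 42.6, 64.1, 47.5 and 39.3 in wild type and 50.4, 48.3, 36.3, 36.5 and 51.2 in null, with overlapping groups and a log2 fold change of -0.15 (-0.49 to 0.19). Null library 2 was not low for this chain, and the log2 fold change was -0.05 without wild-type library 3.

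*Col24a1*, a fibrillar chain that accompanies type I collagen, was the fibrillar gene with the lowest ratio of null to wild type and is named here after its values were seen. It measured 49.6, 42.6, 30.5, 67.1 and 53.8 in wild type and 36.0, 19.1, 42.3, 48.3 and 33.8 in null. The groups overlapped, and the lowest wild-type library was library 3. Its log2 fold change was -0.45 (-0.95 to 0.06; exact permutation *P* = 0.135, n = 5 and 5). It was -0.24 (-0.65 to 0.16) without null library 2 and -0.60 (-1.06 to -0.14; limma, unadjusted *P* = 0.0143 and adjusted *P* = 0.999) without wild-type library 3. Without both it was -0.40 (-0.74 to -0.05; limma, unadjusted *P* = 0.0283 and adjusted *P* = 0.870), so the interval excludes 0 in these last fits, and the gene did not pass the test in any. *Col5a3*, under the minimum for the test, had 7, 2, 22, 3 and 5 reads in the wild-type libraries and 3, 3, 3, 5 and 2 in the null libraries. The higher wild-type mean of 7.74 ± 8.36 normalized counts (SD, n = 5), against 3.26 ± 1.23 in null, came with 22 of its reads in library 3.

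Of the basement membrane chains, *Col4a6* measured 827, 1005.8, 841, 994 and 889 normalized counts in wild type and 974, 898, 985, 926 and 1041.2 in null. The groups overlapped, and its log2 fold change of 0.09 (-0.04 to 0.21) had an SE of 0.06, among the smallest of the 24. *Col15a1*, a proteoglycan collagen that anchors basement membranes to fibrils, measured 296, 557, 389.8, 434 and 508 in wild type and 479.7, 229, 521, 484 and 496 in null. The spread within each genotype exceeded the difference between genotypes, which was -0.01 (-0.62 to 0.61) on the log2 scale and 0.21 without null library 2. *Col4a4* measured 30.4, 30.0, 19.3, 35.1 and 30.0 in wild type and 27.9, 33.2, 34.3, 39.7 and 34.9 in null, with a log2 fold change of 0.24 (-0.14 to 0.62), which was 0.11 without wild-type library 3, and overlapping groups. The values by library of *Col15a1* in both genotypes, of *Col4a6* and *Col14a1* in wild type and of *Col12a1* in null rest on a looser limit for working out counts. The SD of *Col6a3* in wild type rests on it too.

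Of the other families, *Col9a2*, a chain of type IX collagen, had the smallest *P* of the 24 genes. It measured 322, 347, 341, 327 and 333 normalized counts in wild type and 270.0, 225, 342, 282 and 313 in null. Null library 3 lay among the wild-type libraries, and the other null libraries were below all of them. The means were 334 ± 10.01 and 286 ± 44.1 (SD, n = 5 each), and the log2 fold change was -0.23 (-0.42 to -0.05; limma, unadjusted *P* = 0.0141 and adjusted *P* = 0.999). It did not pass the test. The log2 fold change fell in size to -0.15 without null library 2, and to -0.14 without wild-type library 3 as well.

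*Col9a1*, another chain of type IX and named after its values were seen, measured 363, 354, 486, 386 and 460.4 in wild type and 342, 181, 397, 362 and 334 in null. The groups overlapped, with null library 2 at 0.504 times the mean of the other null libraries. The log2 fold change was -0.38 (-0.86 to 0.11; exact permutation *P* = 0.0794, n = 5 and 5), -0.18 without null library 2 and -0.12 without wild-type library 3 as well. *Col9a3*, the remaining chain of the molecule, measured 176, 258, 269, 249.7 and 296 in wild type and 212, 196, 303, 238 and 267 in null, with a log2 fold change of -0.03 (-0.37 to 0.30), and 0.07 without both libraries. The ranges of the genotypes nearly coincided for this chain.

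*Col23a1* measured 800.4, 681, 804, 727 and 693 in wild type and 700.2, 762, 794, 779.6 and 798 in null, a log2 fold change of 0.05 (-0.06 to 0.17) with the smallest SE of the 24. *Col13a1* measured 380.2, 343, 366, 344 and 359 in wild type and 326, 356, 326, 308 and 374 in null, a log2 fold change of -0.09 (-0.21 to 0.04). The groups overlapped for both transmembrane chains. *Col8a1*, the only gene with a ratio over 0.25 that was higher in null, measured 53.9, 44.5, 43.8, 35.1 and 62.1 in wild type and 61.2, 54.3, 58.5, 51.5 and 63.2 in null. Its groups overlapped, and its log2 fold change was 0.29 (-0.03 to 0.60; exact permutation *P* = 0.103, n = 5 and 5). *Col22a1*, a chain of tissue junctions, measured 24.4, 31, 64.1, 38.2 and 29.0 in wild type and 20.7, 22.1, 34.3, 30.1 and 35.9 in null. Its log2 fold change of -0.32 (-0.82 to 0.18) was -0.11 without wild-type library 3, which was the highest of the 10. The remaining 10 tested genes had log2 fold changes from -0.34 (*Col17a1*) to 0.15 (*Col20a1*), each with an interval that spans 0 and overlapping groups. Among them, *Col17a1* was at -0.19 without wild-type library 3. *Col6a6*, a chain related to *Col6a3*, went from 0.09 (-0.24 to 0.41) to 0.26 (0.07 to 0.46; limma, unadjusted *P* = 0.0105 and adjusted *P* = 0.870) without wild-type library 3 and null library 2, and did not pass the test.

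**Figure D4:**
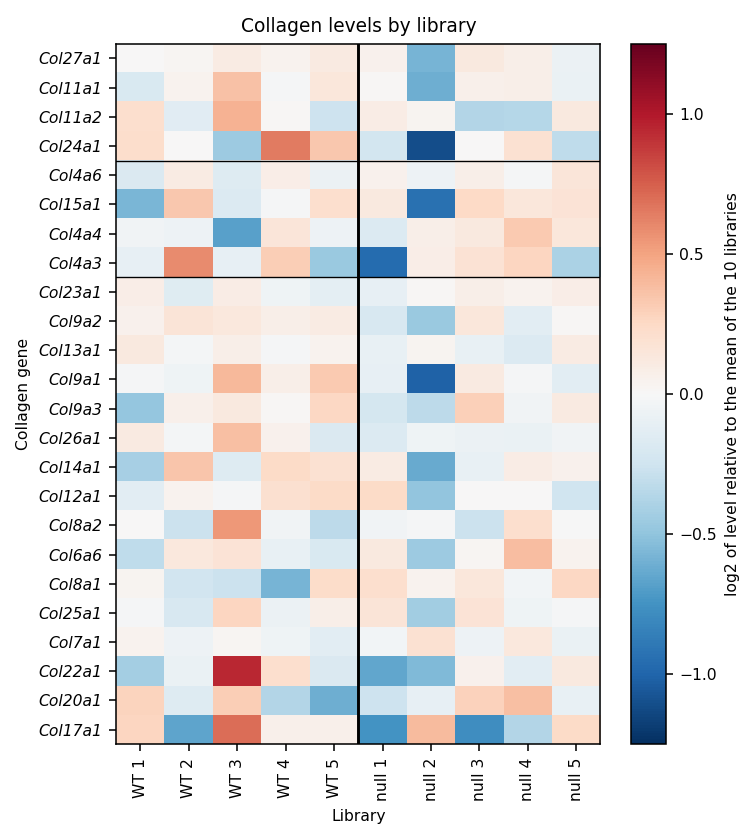
Level of the 24 tested collagen genes in each of the 10 libraries, as the log2 of the level relative to the gene's mean over the libraries (red high, blue low; columns WT 1 to WT 5 are wild type). The column of null library 2 is blue in many rows of the fibrillar and other classes, and *Col22a1* and *Col17a1* are red in wild-type library 3.

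Part of the collagen genes were low together in a single null library. Null library 2 was the lowest of the 10 libraries for 10 of the 24 genes (41.7%), whereas it was the lowest for 14.8% of all genes tested. It stood at most at 0.75 times the mean of the other 4 null libraries for 11 of the 24 (45.8%), against 6.6% of all genes. They were *Col9a1*, *Col9a2*, *Col11a1*, *Col12a1*, *Col14a1*, *Col15a1*, *Col22a1*, *Col24a1*, *Col25a1*, *Col27a1* and *Col6a6*. The ratio to the other null libraries had a median of 0.813 over the 24 genes and 0.998 over all genes, and it ran from 0.463 in *Col15a1* to 1.75 in *Col17a1*. *Col14a1*, which binds the surface of fibrils, stood at 239 normalized counts there and at 348 to 398 in the other null libraries. *Col12a1*, its relative in dense tissue, stood at 447 against 527 to 744.

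The low values of this library were not a loss of every collagen. *Col23a1* (762, against 700.2 to 798 in the other null libraries), *Col13a1*, *Col26a1*, *Col8a2* and *Col7a1* were within or above the range of the other null libraries. Of the cartilage markers, 7 of 12 listed could be resolved. *Acan*, the large proteoglycan of cartilage and cushions, stood at 21.1 normalized counts in null library 2 and at 50.1 to 112 elsewhere. The sum of the 7 was 447 there, against 472 to 542 in the other null libraries and 526 to 562 in wild type. Without *Acan*, the sum of the remaining 6 was 426. This was within the 419 to 436 of the other null libraries and below the 437 to 458 of wild type. Most of it was *Sox5* (141) and *Sox6* (238). *Comp* (35.2, against 35.9 to 52.8 elsewhere) and *Lect1* (6.03, against 8.10 to 22.4) were also lowest of the 10 libraries there, whereas *Sox5*, *Sox6*, *Matn3* and *Ucma* were not. *Sox9*, resolved in null only, was at 614 there and at 638 to 772 in the other null libraries. The cartilage genes *Ucma* and *Matn3* were at 0 to 6.11 in every library. The part of these markers in the collagen values was not tested.

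Wild-type library 3 was the highest of the 10 libraries for 9 of the 24 collagen genes (37.5%), against 15.7% of all genes tested, and stood at least at 1.25 times the mean of the other wild-type libraries for 8 (33.3%), against 10.3%. Among the latter, *Col22a1* was at 2.09 times, *Col17a1*, a hemidesmosome chain, at 1.70 times and *Col8a2* at 1.62 times. The neuronal markers that were high in the same library are given above and the other markers that were high in it further on, and their part in the collagen values was not tested. Without wild-type library 3 and null library 2, the median log2 ratio over the resolved members went from -0.17 to -0.04 in the 4 fibrillar genes, from 0.05 to 0.10 in the 4 basement membrane genes and from -0.06 to 0.01 in the 16 others. The number of collagen genes called stayed at 0.

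**Figure D5:**
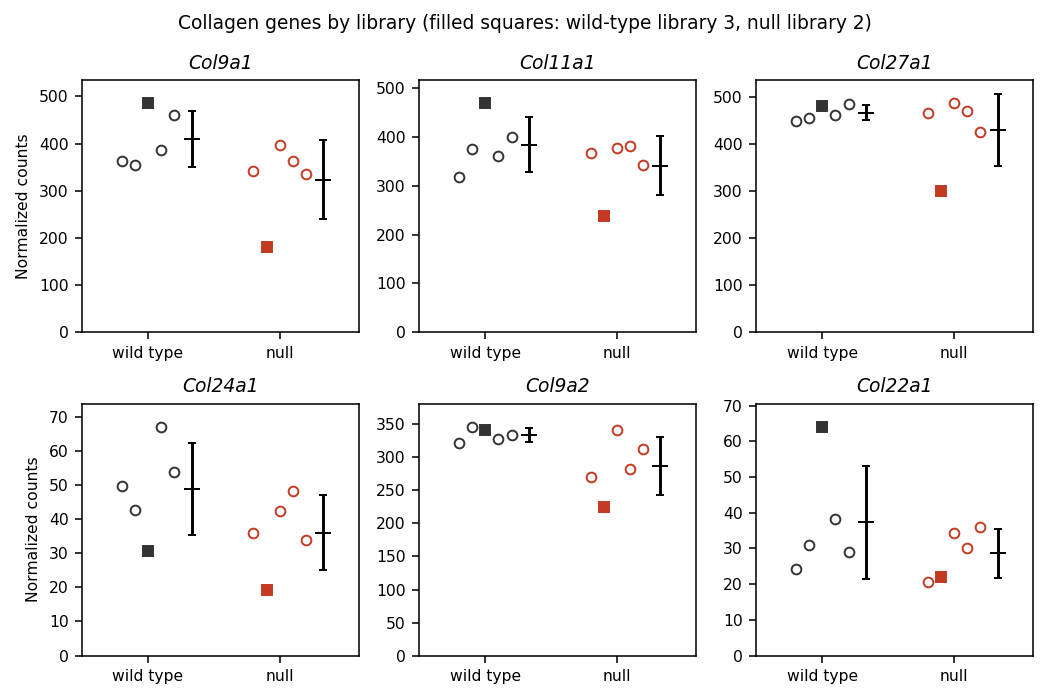
Normalized counts of 6 collagen genes in the 5 wild-type (black) and 5 null (red) libraries, with mean ± SD beside each group; filled squares mark wild-type library 3 and null library 2. Null library 2 is the lowest point of *Col9a1* (181), *Col11a1* (237), *Col27a1* (299.6), *Col24a1* (19.1) and *Col9a2* (225), and wild-type library 3 is the highest of *Col22a1* (64.1).

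The genes that modify, fold, export, trim, cross-link, bind and degrade collagen showed no called difference either. Of 78 listed names, 73 had a row, and 65 had a mean of at least 10, of which 39 were higher and 26 lower in null with a median log2 ratio of 0.02. In the fit, 27 of them were tested, 0 were called in either direction, and 1 had an unadjusted *P* under 0.05, against 3.36% of all genes. That gene was *Tnxb*, tenascin-X, which links fibrils. It measured 612, 734, 511, 719 and 641 in wild type and 849, 792, 743, 820.4 and 820.1 in null, so every null library was above every wild-type library. Groups without overlap were found in 0.778% of all genes tested. Its log2 fold change was 0.33 (0.15 to 0.51; limma, unadjusted *P* = 0.00164 and adjusted *P* = 0.999), which did not pass the test.

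The most abundant gene of each step differed little between the group means. *P4hb*, a subunit of prolyl 4-hydroxylase, stood at 6149 normalized counts in wild type and 6084 in null, and *Serpinh1*, the collagen chaperone HSP47, at 12692 and 12485. *Bmp1*, which cuts off the C-propeptide, stood at 1435 and 1398. The cross-linking oxidase *Loxl2* was at 5132 and 5390. Among binding, receptor and degrading proteins, *Sparc* stood at 15080.5 and 15018, *Itgb1* at 9272 and 9651 and *Mmp15* at 4317 and 4290.2. The log2 ratios of these 7 genes lay between -0.04 and 0.07 and had no test, since their group means were above the limit of 1000.

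The listed genes with the lowest ratio of null to wild type, among those that reached a mean of 50, were *Adamts2*, which cuts off the N-propeptide (476 and 396, log2 ratio -0.27), the collagen receptor *Ddr2* (225 and 201, -0.16) and the metalloproteinase inhibitor *Timp1* (144 and 131, -0.14), none of which passed the test. *Adamts2* was at 238 in null library 2 and at 338 to 498 in the other null libraries. Beside *Tnxb*, the highest ratios were those of *Adamts3* (64.5 and 77.2, 0.26) and the laminin chain *Lama1* (61.9 and 70.1, 0.18), which did not pass it either. All 10 basement membrane partners, laminins, nidogens and perlecan (*Hspg2*, 18968 and 19833), had a higher group mean in null, with log2 ratios of 0.04 to 0.18 and a median of 0.08. Of all 13299 protein-coding genes with a mean of at least 10, 6588 were higher in null, with a median log2 ratio of -0.00093. Of the 10 partners, 2 could be tested and 0 were called. The others had no values by library and no test.

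Lists for other tissues that a dissected heart could carry along were summed as well. The summed level of 5 resolved lung epithelium markers was 492 to 668 normalized counts in wild type and 461 to 594 in null, nearly all of it *Etv5* (means of 551 and 521), which is not limited to lung. That of 4 skeletal muscle markers was 47.4 to 94.7 and 57.7 to 89.5, that of 4 bone markers 41.8 to 57.1 and 34.2 to 58.0, and that of 5 epidermal markers, mostly *Perp*, 826 to 994 and 849 to 957. The ranges of the genotypes overlapped for each list. Some markers at low levels in these lists, but not all, were highest in wild-type library 3. *Sox2* stood at 25.4 there and at 0.900 to 7.24 in the other 9 libraries, *Foxa2* at 9.16 against 0 to 1.03, *Epcam* at 13.2 against 0 to 6.03, *Krt15* at 10.2 against 0 to 2.06 and *Myod1* at 13.2 against 0 to 1.80. Other markers of these lists were not highest in wild-type library 3. *Krt14* stood at 13.2 there and at 23.7 in wild-type library 4, and *Actn3* at 63.1 there and at 87.0 in wild-type library 1. *Perp* stood at 810 there, its lowest level in any library. The smooth muscle gene *Myh11* stood at 206 in wild-type library 3 and at 28.3 to 69.1 in the other libraries. The 2 resolved endothelial markers summed to 1545 to 1747 in wild type and 1611 to 1673 in null, the 4 epicardial markers to 1237 to 1651 and 1458 to 1584, and the 3 mesenchymal and valve markers to 961 to 1226 and 944 to 1155.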

How the data were processed

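Hearts of 5 wild-type and 5 *Nos1ap* null embryos were sequenced, and genotypes were taken from the sample labels. Per the labels and methods, the authors cleaned reads with Trimmomatic 0.36, ran STAR inside RSEM 1.2.31 against GENCODE M10 (GRCm38), and used DESeq 1.24.0 on the gene counts. The deposited signal is a normalized count: the authors divided each library's counts by its size factor and gave the mean of each group. Columns with the authors' fold changes and *P* values hold their own comparison and were not used.

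Each group mean is a sum of whole counts, each times a step set by its library's size factor, and is printed to 15 digits, so the counts behind it can be solved for. For means under 200 every possible set was listed, and only a single solution was accepted. For higher means the solution closest to even expression was accepted if no more than 0.05 rival solutions that close would arise by chance, so that genes with very uneven libraries drop out. Counts were used only for group means below 1000, since above this limit a solution was found for 56% of wild-type and 65.8% of null means up to 2000 and for fewer beyond. On simulated data, 3 of the sets derived were wrong, 2 among 5636 wild-type and 1 among 5708 null means from 200 to 1000. *P* values measure only the spread between these libraries, and depth was estimated as the group total times the size factor.

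Counts were tested with limma 3.58.1 (R 4.3.3; trend, robust) with a pseudocount of 1, and Benjamini-Hochberg adjustment ran over all 10539 genes. In simulated data of these genes, 58.5% of genes changed by 0.5 on the log2 scale and 83% of those changed by 1 were found at FDR 1%. The simulation set no limit on the fold change. These shares therefore do not give the power of the reported test, which also needed an absolute log2 fold change over 1. Exact permutation tests are unadjusted. Exon lengths and coding sequences came from GENCODE M21, not M10, and promoters from RefSeq. Paralogous collagen genes may share reads that RSEM divided between them. GGN runs needed 5 or more triplets.

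The members, classes and lists were chosen with earlier results of these data known. Values by library are given for chains with resolved counts and a mean of at least 10 that have separate groups, are among the highest 3 resolved chains of their class per kilobase, or have an absolute log2 ratio over 0.5. Others named were chosen after their values were seen. *Col10a1* and *Col21a1* were not analysed here. A marker list for glia and neural crest is not reported here.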

Additional observations from a re-analysis of the deposited data

Results flagged for a closer look

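Of 57 groups of 5 libraries examined over the collagen genes, 4 held a library far from the other 4 by Dixon's ratio of the gap to the range (critical value 0.71). Chance flags about 1 group in 20. *Col11a1* in null library 2 had a ratio of 0.727, with 237 normalized counts against 342 to 381 in the other null libraries. *Col15a1* in null library 2 had a ratio of 0.858, with 229 against 479.7 to 521, on counts derived under the looser limit. *Col5a3* had a ratio of 0.797 in wild-type library 3, with 22 reads against 2 to 7, and of 0.735 in null library 4, with 5 reads against 2 or 3, which is a difference of few reads.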

How the results depend on the processing

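The number of collagen chains called was 0 under every alternative run: pseudocounts of 0.5 and 2, a minimum mean of 1 or none, libraries rescaled to a median ratio of 1, voom, FDR 5% without a fold limit, genes of all types, each library left out in turn (0 to 0), and, chosen after seeing the data, the stricter limit of 0.01 on derived counts (20 chains tested) and the fit without wild-type library 3 and null library 2. The number at an unadjusted *P* under 0.05 ranged from 1 to 3, *Col9a2* being the 1 in the reported fit. Without both libraries they were *Col6a6* and *Col24a1*, and no longer *Col9a2*. The share of the 24 chains below 0 ranged from 58.3% to 75% with each library left out in turn and was 50% without both. The class medians of the log2 ratio moved by less than the spread between libraries under each alternative. With each library left out in turn, over resolved members, they ranged from -0.20 to -0.10 (fibrillar), -0.02 to 0.14 (basement membrane) and -0.11 to -0.03 (other), so the sign of the basement membrane median depends on wild-type library 1, without which it was -0.02. All 452 alternative fold changes of single chains lay within the spread between libraries of the reported value. The alternatives refit the same libraries or most of them, so the comparisons with this spread, also for the class medians, could hardly come out otherwise. Single values still moved: *Col11a1* went from -0.18 to 0.02 without wild-type library 3 and null library 2.

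With the longest transcript as the length, the wild-type shares were 58% fibrillar, 30.8% basement membrane and 11.2% other. The ratios of partner chains became 1.41 (*Col1a1* to *Col1a2*), 1.41 (*Col4a1* to *Col4a2*), 1.05 (*Col6a1* to *Col6a2*), 1.07 (*Col5a1* to *Col5a2*, 0.981 in null), 1.30 (*Col9a1* to *Col9a3*) and 0.229 (*Col8a1* to *Col8a2*), which follows from the length alone. No paired analysis was possible because the group means carry no replicate numbers. Counts by library were not used for the 13 chains with group means above 1000, so depth is not what limits those genes, whereas the 5 chains with means under 10 are limited by it.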
